A study of Mus musculus with 13 samples.

Results

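The Hox genes encode homeodomain transcription factors that lie in 4 chromosomal clusters. All gene symbols made of Hox, a cluster letter from a to d and a number were taken from the count table, with no limit on the counts. This gave 39 protein-coding genes of 53653 symbols, of which 11 belong to the HoxA cluster on chromosome 6, 10 to HoxB on chromosome 11, 9 to HoxC on chromosome 15 and 9 to HoxD on chromosome 2. Antisense and other non-coding genes named after Hox genes were not members and are described apart.

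The RNA came from medulloblastomas of mice, tumours of the cerebellum in which overexpressed SmoM2, an active form of the Hedgehog signal transducer Smoothened, was the driver. The 5 control primary libraries (replicates 3 to 7) came from cerebellar tumours with the genotype SmoM2 overexpression, in animals of 6 to 16 weeks. The 4 KO primary libraries (replicates 3, 4, 6 and 7) came from cerebellar tumours with SmoM2 overexpression and Kmt2d KO, made with Kmt2d Cf/Cf alleles, in animals of 5 to 8 weeks. The 4 KO metastasis libraries (replicates 3, 4, 6 and 7) came from spinal cord tumours with that same genotype and age range. KMT2D is an enzyme that methylates histone H3, chiefly at enhancers. All 13 libraries were of GFP+ cells sorted after papain dissociation. Pellets held 1 to 5 M cells in the primary groups and fewer in the metastases, 0.1 to 3 M. The primary tumours are labelled as granule cell precursors, the cells from which Hedgehog-driven medulloblastomas arise. The labels used here do not name the promoter behind SmoM2, the Cre behind the deletion or which libraries share a mouse, so the p-values take the spread among these libraries as their error. There were no control metastases. Genotype cannot be told apart from age here, nor the metastatic state from the spinal site, and in bulk RNA fewer expressing cells cannot be told apart from less RNA per cell.

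Within each cluster the Hox genes are numbered by paralog group, and the order along the chromosome follows the order of their anterior limits in the embryo. Genes of the low-numbered groups are known for patterning the hindbrain, where Hoxa2, Hoxb2, Hoxb3 and Hoxb4 give rhombomeres their identity, and genes of high-numbered groups act in the trunk, tail and limbs. The cerebellum arises from the first rhombomere, which lies in front of the expression limit of Hox genes. Hox proteins bind DNA with TALE partners (PBX, MEIS and PREP), and Polycomb and Trithorax complexes keep the clusters silent or active.

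The results turn on 4 members, Hoxa2, Hoxb2, Hoxb3 and Hoxb4, which were singled out after their values had been seen. On GRCm38, Hoxa2 lies on the minus strand of chromosome 6 at 52162417 to 52164831, 4.23 kb from Hoxa3. The others follow one another on the plus strand of chromosome 11, with Hoxb4 at 96318267 to 96321638, Hoxb3 at 96323326 to 96347930 and Hoxb2 at 96350525 to 96354012. These genes span 35.7 kb, with Hoxb5 12.1 kb before them and Hoxb1, at 96365752 to 96368256, 11.7 kb behind them. To show the regulatory sequence next to genes that were high and next to a neighbour that was not, the RefSeq promoters (GRCm38.p6, the 250 bases before the start, read 5′ to 3′ on the gene's strand) are given for Hoxa2, Hoxb4 and Hoxb1. Capitals mark a match to TGATNNAT, a PBX-HOX motif, on either strand.
Hoxa2, chr6:52164832-52165081, minus strand: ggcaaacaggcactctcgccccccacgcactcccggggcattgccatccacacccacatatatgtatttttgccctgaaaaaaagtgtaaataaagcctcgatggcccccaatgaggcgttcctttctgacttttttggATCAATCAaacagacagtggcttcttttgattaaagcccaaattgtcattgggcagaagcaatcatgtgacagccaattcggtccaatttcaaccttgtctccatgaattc
Hoxb4, chr11:96318017-96318266, plus strand: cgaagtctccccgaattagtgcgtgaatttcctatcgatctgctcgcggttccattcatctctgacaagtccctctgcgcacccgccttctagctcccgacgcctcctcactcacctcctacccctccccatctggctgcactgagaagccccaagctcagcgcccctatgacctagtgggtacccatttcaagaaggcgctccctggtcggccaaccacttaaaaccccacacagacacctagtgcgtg
Hoxb1, chr11:96365508-96365757, plus strand: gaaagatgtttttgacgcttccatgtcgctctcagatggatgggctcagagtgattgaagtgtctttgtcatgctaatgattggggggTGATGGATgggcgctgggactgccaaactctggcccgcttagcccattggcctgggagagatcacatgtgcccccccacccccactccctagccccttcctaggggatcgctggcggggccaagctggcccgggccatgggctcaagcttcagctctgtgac

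Of the 39 members, 22 had a promoter in that RefSeq table, in 24 windows of 300 bases (250 before and 50 after the start). Hoxb2 and Hoxb3 were not among them. TGATNNAT was found on either strand in 4 of the 24 Hox windows and in 8.85% of all 32851 windows. Its narrower form TGATTNAT, whose matches are all matches to TGATNNAT, was in 2 Hox windows, 1 of them that of Hoxa2, and in 3.22% of all windows. The DR5 retinoic acid response element, a spaced direct repeat of AGGTCA searched on both strands, was in 0 Hox windows and in 3 windows overall. The homeodomain core TAATTA was in 2 Hox windows, both of Hoxd11, and in 5.29% of all windows. The Hox windows held a median of 14.5 CpG and 57.7% GC, against 7 CpG and 52.7% GC over all windows. Within the 250 bases shown, Hoxa2 had 6 CpG, Hoxb4 14 and Hoxb1 7.

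Total counts ran from 23.5 to 41.4 M per library, and levels are given as CPM (counts relative to library size, scaled by TMM factors except for the receptor genes, Xist and all values per kb, which use unscaled totals). The 1982 genes of olfactory and vomeronasal receptors, which belong to sensory epithelia, drew 1752 CPM in control primary 3, 723 in KO primary 7, 565 in KO metastasis 6 and 349 in KO metastasis 7. KO primary 6 had 83.5 CPM and the other 8 libraries 6.08 to 19.5. The 4 libraries above 100 CPM are called high-receptor libraries below, and results that rest on them are given with and without them. Control primary 5, 6 and 7 had Xist at 324 to 510 CPM, whereas the other 10 libraries had at most 1.02 CPM. Kmt2d itself had 125 ± 36.7 CPM in control primary (SD, n = 5), 116 ± 35.7 in KO primary and 115 ± 11.2 in KO metastasis (n = 4 each), with no call in edgeR (adjusted p = 0.958 for KO primary against control primary). Whole-gene counts do not read the deleted exons, so this level neither checks nor contradicts the genotype labels.

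Over all 13 libraries the 39 Hox genes held 7916 counts, and Hoxa2, Hoxb2, Hoxb3 and Hoxb4 held 6929 of them. Hoxa11, Hoxa13 and Hoxd13 had 0 counts in every library. The other 35 members held 987 counts, 915 of them in the 4 high-receptor libraries and 72 in the 9 others. A total of 21 members had counts in high-receptor libraries alone. The control primary libraries 3 to 7 held 276, 3, 17, 0 and 0 Hox counts. KO primary 3, 4, 6 and 7 held 225, 329, 243 and 376, and KO metastasis 3, 4, 6 and 7 held 2525, 2370, 1026 and 526. Nearly all Hox reads of the knockout libraries with few receptor reads were thus on 4 genes, and the few Hox reads of the controls were mostly in 1 library and on other genes.

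**Figure D1:**
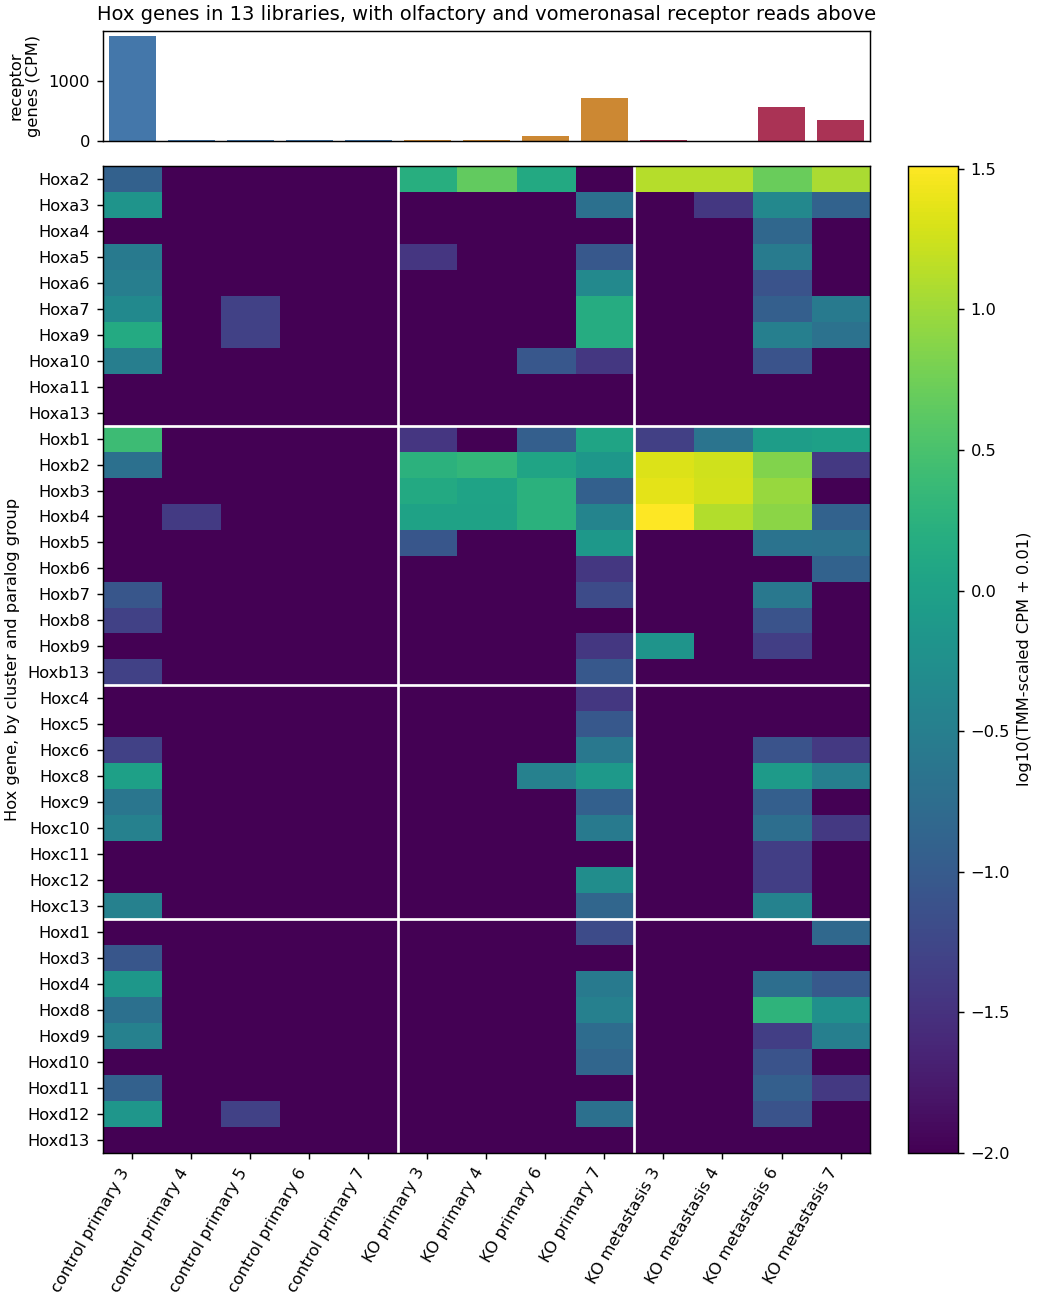
Level of the Hox genes shown (rows, ordered by cluster and paralog group) in each of the 13 libraries (columns), as log10 of TMM-scaled CPM plus 0.01, with the receptor-gene CPM of each library as bars above on a linear axis. Hoxa2 and Hoxb2 to Hoxb4 form bright rows in most knockout libraries, and the scattered faint rows lie mostly in the 4 libraries with tall bars. Hoxa2 is at 0 in KO primary 7. In KO metastasis 7, Hoxb2, Hoxb3 and Hoxb4 are at 0.0288, 0 and 0.115 CPM.

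The share of Hox reads that fell on Hoxa2, Hoxb2, Hoxb3 and Hoxb4 split the libraries in the same way (exact binomial 95% intervals). These intervals cover counting error within each library and not the spread between libraries. The reads carry no molecular identifiers, so copies of one molecule could not be told apart. The share was 97.8% of 225 counts in KO primary 3 (94.9 to 99.3), 100% of 329 in KO primary 4 (98.9 to 100) and 91.8% of 243 in KO primary 6 (87.6 to 94.9). In KO primary 7, a high-receptor library, it was 11.7% of 376 (8.63 to 15.4). It was 99.2% in KO metastasis 3 and 99.6% in KO metastasis 4. The high-receptor metastases 6 and 7 had 81.2% (78.7 to 83.5) and 76.8% (73.0 to 80.3). In control primary 3 it was 2.90% of 276 counts (1.26 to 5.63). The summed level of the other 35 members was 10.2 CPM in control primary 3, 8.99 in KO primary 7, 6.78 in KO metastasis 6 and 3.51 in KO metastasis 7, against at most 0.682 CPM in the 9 other libraries. The level of these members followed the receptor reads across groups, and whether both have one source was not tested.

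**Figure D2:**
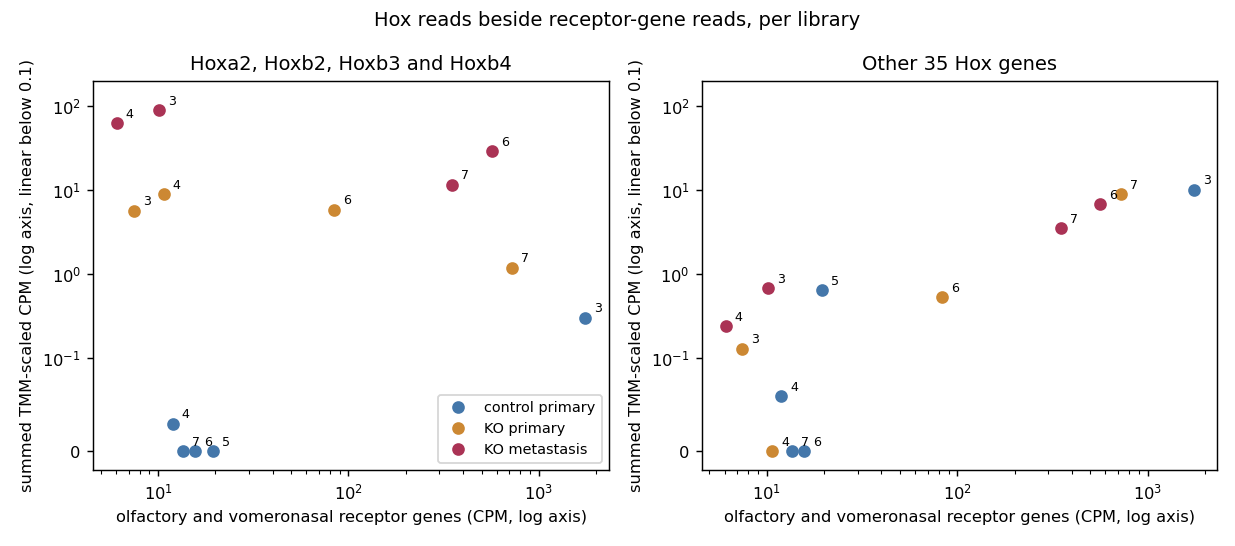
Summed TMM-scaled CPM of Hoxa2, Hoxb2, Hoxb3 and Hoxb4 (left) and of the other 35 Hox genes (right) against receptor-gene CPM for each library, both on log axes (linear below 0.1 vertically), coloured by group and numbered by replicate. On the right the 4 libraries at or above 349 receptor CPM hold the highest values, 3.51 to 10.2 CPM, whereas on the left the highest values, 62.6 and 90.0 CPM, are those of KO metastasis 4 and 3, with 6.08 and 10.1 receptor CPM.

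The first comparison asks what went with the loss of Kmt2d in primary tumours. Hoxa2 and Hoxb4 were higher in KO primary tumours than in control primary tumours, and Hoxb2 and Hoxb3 had the same direction but missed the threshold. Hoxa2, the only Hox gene expressed as far forward as the second rhombomere, had 3, 0, 0, 0 and 0 counts in control primary 3 to 7 and 60, 173, 51 and 0 in KO primary 3, 4, 6 and 7. In CPM these were 0.114 and 4 values of 0 against 1.56, 4.71, 1.35 and 0. The 3 KO primary libraries with few receptor reads were all above the controls, and KO primary 7 was at 0 with 4 of the controls. The mean was 1.90 ± 1.99 CPM (SD, n = 4) against 0.0228 ± 0.0510 (n = 5), and edgeR's quasi-likelihood test gave a log2 change of 6.33 (SE 1.28, adjusted p = 0.0158). The ratio of the pooled counts was 97.6 (95% counting interval 33.1 to 476). Leaving out control primary 4 or KO primary 4 raised the adjusted p to 0.0506 and 0.0593, and with the replicate number as a block it was 0.0733.

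Hoxb4, which marks the hindbrain from the seventh rhombomere backwards, had 1 count over the 5 controls, in control primary 4, and 40, 38, 65 and 14 counts in KO primary 3, 4, 6 and 7. The levels of 1.04, 1.03, 1.72 and 0.379 CPM in KO primary were all above the highest control, at 0.0296 CPM. The edgeR log2 change was 6.69 (SE 1.41, adjusted p = 0.0200) and the ratio of pooled counts was 162 (28.6 to 6436). The adjusted p rose above 0.05 without control primary 4 (0.106), 6 (0.0553) or 7 (0.0637), and without KO primary 4 (0.0502) or 6 (0.0553).

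Hoxb2, which is expressed from the third rhombomere backwards, had 5 counts in control primary 3, 0 in the other controls and 69, 78, 42 and 26 in KO primary. Its KO primary levels of 1.80, 2.12, 1.11 and 0.704 CPM were all above the controls, of which the highest was 0.190 CPM. The ratio of pooled counts was 44.3 (18.7 to 138), and the log2 change was 5.26 (SE 1.36, edgeR adjusted p = 0.0561). It passed the threshold without control primary 3 (adjusted p = 0.0414) or without KO primary 7 (0.0495), which are the high-receptor libraries of this comparison. Hoxb3, a gene of the fifth rhombomere and behind, was at 0 in all 5 controls. KO primary 3, 4, 6 and 7 had 51, 40, 65 and 4 counts, at 1.33, 1.09, 1.72 and 0.108 CPM. With a floor of 3 counts for the whole control group, it was at least 55.0-fold higher in KO primary (edgeR adjusted p = 0.0910).

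**Figure D3:**
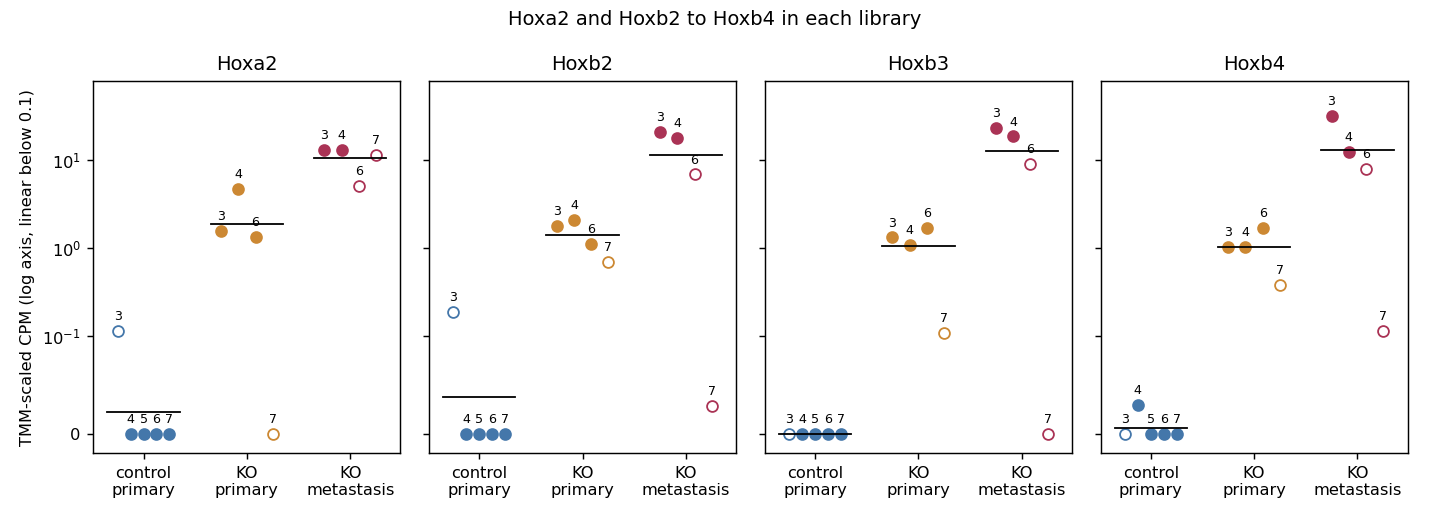
TMM-scaled CPM of Hoxa2, Hoxb2, Hoxb3 and Hoxb4 in each library (points, numbered by replicate, on a log axis that is linear below 0.1), with lines at the group means and open points for the 4 high-receptor libraries. The controls lie at or below 0.190 CPM in every panel, while KO metastasis 7 is high for Hoxa2 alone, at 11.5 CPM.

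In all, 2 of the 39 members were called higher (edgeR adjusted p below 0.05) and 0 lower in KO primary against control primary, beside 1.17% and 1.79% of the 22265 genes tested. For 3 members, Hoxb2, Hoxb3 and Hoxb4, every KO primary library was above every control, as for 3.57% of all genes tested. The lowest was KO primary 7, a high-receptor library, with 26, 4 and 14 counts of them. That library also had 54 counts each of Hoxa7 and Hoxa9 and 41 of Hoxb1. Whether its counts on Hoxb2, Hoxb3 and Hoxb4 share a source with these was not tested. A filter on low counts was passed by 6 members: Hoxb1, Hoxc8, and Hoxa2, Hoxb2, Hoxb3 and Hoxb4, which passed it through the knockout libraries alone. Such genes had to be higher in a knockout group, so their number among tested genes is no measure of how the family moved. Without the high-receptor libraries, which leaves 4 controls and 3 KO primary libraries, all 4 were called, with log2 changes of 9.44 for Hoxa2, 8.84 for Hoxb2, 8.56 for Hoxb3 and 6.80 for Hoxb4 (edgeR adjusted p = 0.00127, 0.000426, 0.000388 and 0.000478), beside 2.74% of genes called higher. Hoxa2 and Hoxb2 then had 0 control counts and were at least 108-fold and at least 71.5-fold higher with that floor. DESeq2 called all 4 on the full set and limma voom with quality weights called 0.

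All 8 knockout libraries lacked Xist above 0.364 CPM, so the groups also differed in the share of libraries with Xist. With control primary 3 and 4 as the only controls, a choice made after the data had been seen, none of 14 tested Hox members was called in either comparison with the controls (4 at an unadjusted edgeR p below 0.05 in each). The log2 changes in KO primary were then 5.21 for Hoxa2 and 5.76 for Hoxb4 (edgeR adjusted p = 0.344 and 0.426). The 3 controls with Xist had 0 counts of all 4 genes. Control primary 3, with 1.02 CPM of Xist, had 3 counts of Hoxa2, 5 of Hoxb2 and 0 of the others. Control primary 4, with 0.470 CPM of Xist, had 1 count of Hoxb4 and 0 of the others.

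The second comparison asks what differed between spinal metastases and primary tumours within the knockout. The 4 genes had higher means in the metastases, but no Hox member was called, and 1 of 22265 genes tested was called at all (0.00449%, Mbp, higher). Hoxa2 had 368, 496, 146 and 399 counts in KO metastasis 3, 4, 6 and 7, or 13.2, 13.2, 5.13 and 11.5 CPM. Every metastasis was above the highest KO primary library, at 4.71 CPM. Hoxa2 was the 1 member without overlap, as were 0.683% of all genes tested. The means were 10.7 ± 3.83 against 1.90 ± 1.99 CPM. The ratio of pooled counts was 5.77 (95% counting interval 5.08 to 6.58, which leaves out the spread between libraries). The log2 change was 2.49 (SE 0.98, unadjusted p = 0.0237 in edgeR's quasi-likelihood fit across all genes).

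Hoxb2, Hoxb3 and Hoxb4 were high in KO metastasis 3, 4 and 6 and near 0 in KO metastasis 7. Hoxb2 had 582, 684, 197 and 1 counts, at 20.9, 18.1, 6.92 and 0.0288 CPM. Hoxb3 had 654, 707, 262 and 0 counts, at 23.5, 18.8, 9.20 and 0 CPM. Hoxb4 had 902, 474, 228 and 4 counts, at 32.4, 12.6, 8.01 and 0.115 CPM. For each of the 3 HoxB genes, metastases 3, 4 and 6 were above all 4 KO primary libraries and metastasis 7 was below all of them, so the groups overlapped.

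The log2 changes of metastases against KO primary tumours were 3.00 for Hoxb2 (SE 1.13), 3.59 for Hoxb3 (SE 1.34) and 3.66 for Hoxb4 (SE 1.00), with unadjusted edgeR p-values of 0.0193, 0.0238 and 0.00256. With Hoxa2, 4 of the 39 members had an unadjusted p below 0.05 and were higher, beside 1.93% of all genes tested. After adjustment over all genes each of these p-values was 1.00. DESeq2 also called 0 members (4 at an unadjusted p below 0.05), as did voom (2). Under voom, which gave quality weights to the libraries, the changes of Hoxb2 and Hoxb3 had the opposite sign, at -1.29 and -1.42, and that of Hoxb4 was 0.02. The 2 members with an unadjusted voom p below 0.05 were Hoxa2 (2.70) and Hoxb1 (3.75). Without the high-receptor libraries, which leaves metastases 3 and 4 against 3 primary tumours, Hoxb3 and Hoxb4 were called, with log2 changes of 3.93 and 4.14 (edgeR adjusted p = 0.0343 for both), beside 0.0247% of genes called higher. Hoxa2 and Hoxb2 were not called there (2.38 and 3.54, adjusted p = 0.393 and 0.0709). That setting also drops metastasis 7, where the HoxB genes were near 0. With metastasis 7 alone left out, neither Hoxb3 nor Hoxb4 was called (edgeR adjusted p = 0.917 and 0.117).

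The third comparison sets the metastases against the same 5 controls, so it shares libraries with both others and is no separate evidence. Hoxa2, Hoxb2, Hoxb3 and Hoxb4 were all higher in the metastases, 4 of the 39 members beside 1.06% of genes tested that were called higher. The log2 changes were 8.82 for Hoxa2 (SE 1.32, edgeR adjusted p = 0.00267), 8.26 for Hoxb2 (SE 1.43, 0.00600) and 10.35 for Hoxb4 (SE 1.41, 0.00134). Hoxb3, with 0 control counts, was at least 649-fold higher with the same floor (edgeR adjusted p = 0.0167). The ratios of pooled counts were 564 for Hoxa2 (193 to 2737), 351 for Hoxb2 (150.3 to 1084) and 1930.2 for Hoxb4 (346 to 76285). The calls remained for all 4 genes when any 1 of the 9 libraries was left out, and without the high-receptor libraries, where 2.87% of genes were called higher. With no filter on low counts the call of Hoxb3 was lost (edgeR adjusted p = 0.109). All 4 calls were lost with control primary 3 and 4 as the only controls (edgeR adjusted p from 0.111 to 0.210), where the log2 changes were 7.72 for Hoxa2, 7.12 for Hoxb2 and 9.44 for Hoxb4, and Hoxb3 had 0 control counts. Voom called Hoxa2 but not the HoxB genes among them (adjusted p from 0.114 to 0.272). Voom also called Hoxb1 and Hoxc8 higher there (adjusted p = 0.00655 and 0.0498), which edgeR and DESeq2 did not. Every metastasis was above every control for Hoxa2 and Hoxb4, 2 members, as for 2.81% of all genes tested. The lowest metastasis was 5.13 CPM for Hoxa2 but 0.115 CPM for Hoxb4, and for Hoxb2 and Hoxb3 metastasis 7 lay within the range of the controls.

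**Figure D4:**
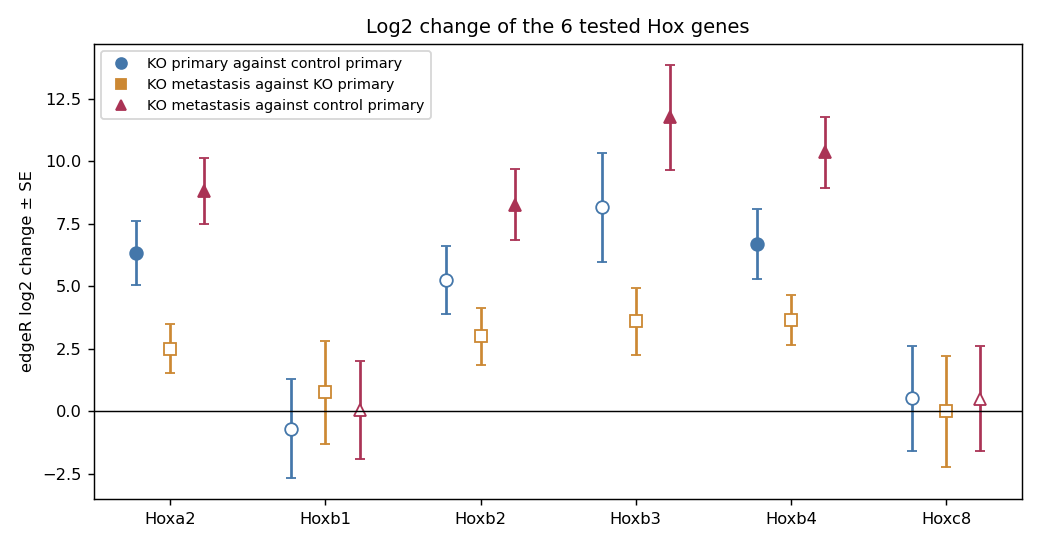
Log2 changes from edgeR for the 6 Hox genes that passed the low-count filter, in the 3 comparisons (colours and symbols, filled where called at an adjusted p below 0.05). Bars show an SE worked back from the test, as the size of the change over the square root of its F statistic. Hoxa2, Hoxb2, Hoxb3 and Hoxb4 lie above 0 in all 3 comparisons, while Hoxb1 and Hoxc8 lie within 1 SE of 0. The position of Hoxb3 against the controls depends on the prior count because the controls had 0 reads.

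The make-up within the 4 genes differed between libraries of one group. In KO metastasis 7, 98.8% of their 404 counts were on Hoxa2 (Wilson 95% interval 97.1 to 99.5), whereas in metastases 3, 4 and 6 the Hoxa2 share was 14.7%, 21.0% and 17.5%. In KO primary 3, 4 and 6 it was 27.3%, 52.6% (47.2 to 57.9) and 22.9%. Hoxb4 took 36.0% of the counts in metastasis 3 (34.1 to 37.9) but 20.1% in metastasis 4 (18.5 to 21.7). KO primary 7 had 0 counts on Hoxa2 and 26, 4 and 14 on Hoxb2, Hoxb3 and Hoxb4. A count of 0 there allows up to 0.0813 CPM of Hoxa2 (3 counts). The 3 HoxB counts were below those of other Hox genes in that library, such as 54 on Hoxa7, 54 on Hoxa9 and 41 on Hoxb1. The libraries with replicate number 7 thus differed in Hoxa2 between the primary and the metastatic site. The labels do not say whether equal numbers mark one mouse.

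Per kb of exon, which allows genes to be compared, and with unscaled totals, Hoxa2 had the highest mean level in KO primary, 1.03 CPM per kb, before Hoxb2 with 0.397, Hoxb4 with 0.394 and Hoxb3 with 0.240. The Hoxa2 values there ran from 0 in KO primary 7 to 2.55 CPM per kb in KO primary 4 (SD 1.08). In the metastases the means were 5.88 CPM per kb for Hoxa2, 4.96 for Hoxb4, 3.15 for Hoxb2 and 2.90 for Hoxb3. Their SDs of 1.90 to 5.04 CPM per kb over 4 libraries exceeded the steps between neighbours in that order. Hoxb2 and Hoxb3 share 953 and 2250 exon bases with the antisense gene Hoxb3os, and the strand setting was not given. The effect of this overlap on their values per kb was not tested. In KO metastasis 3 the order was Hoxb4 (11.97 CPM per kb), Hoxa2 (7.06), Hoxb2 (5.68) and Hoxb3 (5.24). These are moderate levels for an expressed gene: in that library Hoxb4 stood at the 72.2nd percentile of the 15113 genes with a count and coordinates, and Hoxa2 at the 60.8th. In KO primary 3 the 4 genes stood between the 19.5th and the 28.7th percentile of 15299 genes.

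Genes next to these along the chromosome had few reads outside the high-receptor libraries. In HoxA, Hoxa3 had 1 count in the low-receptor libraries, in metastasis 4. In HoxB, Hoxb5 had 3 counts in the low-receptor libraries, all in KO primary 3. The HoxA sum ran from 0.841 ± 1.53 CPM in control primary (n = 5) to 2.85 ± 1.60 in KO primary and 11.3 ± 3.20 in KO metastasis (n = 4 each), and the HoxB sum from 0.584 ± 1.29 to 4.10 ± 0.613 and 38.5 ± 32.6 CPM. HoxC and HoxD sums had no such order: HoxC means were 0.388, 0.628 and 0.489 CPM and HoxD means 0.434, 0.284 and 0.876 CPM, with SDs larger than the means. These sums were not tested.

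**Figure D5:**
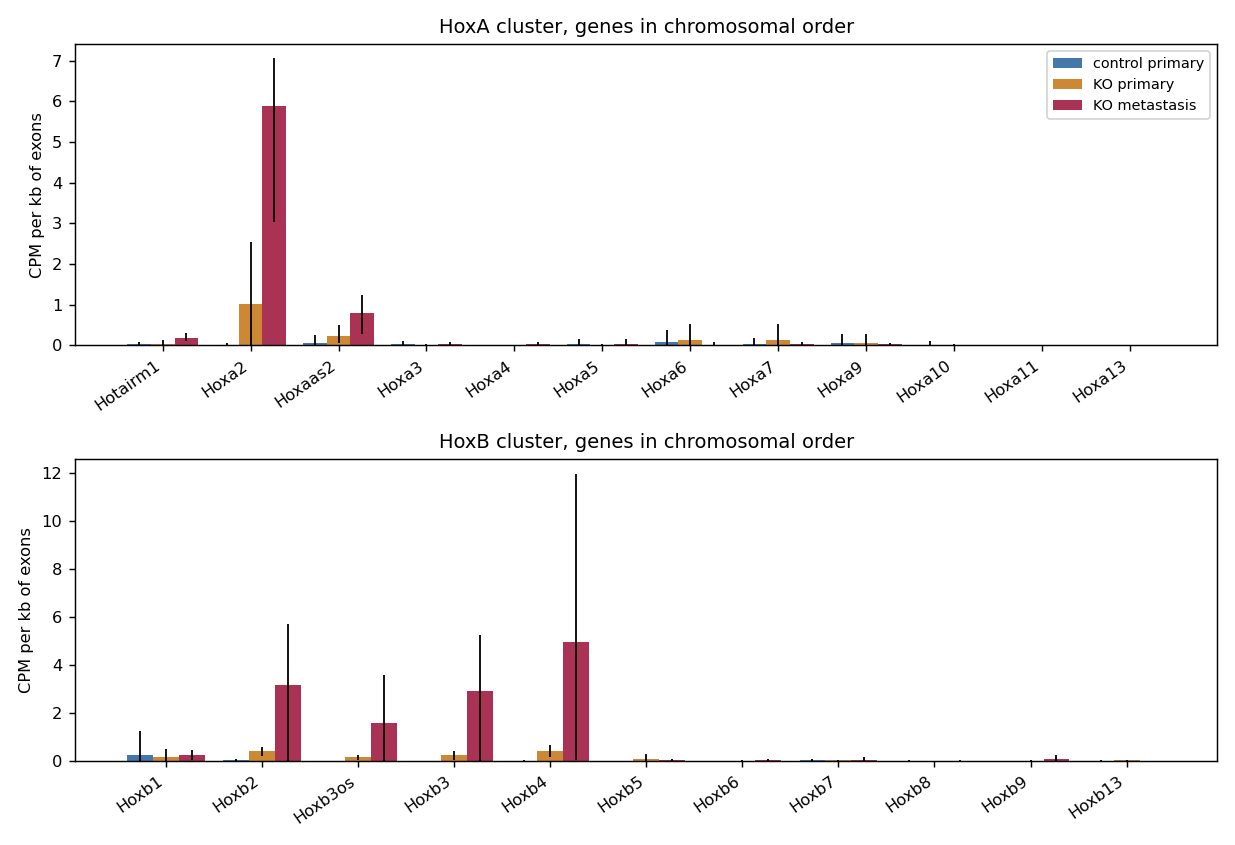
Mean CPM (unscaled totals) per kb of exon in each group (bars; lines from the lowest to the highest library) for HoxA and HoxB genes and the non-coding genes between them, in chromosomal order from the low-numbered end, on linear axes that start at 0. Hoxa2 stands alone in HoxA, with 5.88 CPM per kb in metastases, and Hoxb2, Hoxb3 and Hoxb4 stand together in HoxB at 2.90 to 4.96.

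Hoxb1, the fourth-rhombomere gene next to Hoxb2, did not share its pattern. Its counts were 67, 0, 0, 0 and 0 in control primary 3 to 7, 1, 0, 4 and 41 in KO primary 3, 4, 6 and 7, and 1, 8, 25 and 34 in KO metastasis 3, 4, 6 and 7. Of its 181 counts, 14 were in the 9 low-receptor libraries. Its means of 0.510 ± 1.14, 0.311 ± 0.535 and 0.526 ± 0.472 CPM overlapped, and the edgeR adjusted p-values were 0.970, 1.00 and 0.996 for KO primary against control, metastasis against KO primary and metastasis against control. Its log2 change in KO primary was -0.70 and became 6.33 without control primary 3, which held all its control reads. Hoxc8, a thoracic gene that was also tested, had 26 counts in control primary 3, 13 and 29 in KO primary 6 and 7, and 23 and 11 in KO metastasis 6 and 7, with 0 in all other libraries. Its log2 changes were 0.52, -0.01 and 0.51 (SE 2.10 to 2.21, edgeR adjusted p = 0.981, 1.00 and 0.980).

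Hoxd8 was not tested but reached a mean of 0.618 ± 0.894 CPM in the metastases. Its 91 counts were all in high-receptor libraries: 5 in control primary 3, 12 in KO primary 7, and 54 and 20 in KO metastasis 6 and 7. Hoxa9, a posterior gene known from leukaemia, had 37 of its 108 counts in control primary 3 and 54 in KO primary 7. Hoxa7 had 12 and 54 of its 79 counts in those libraries. The posterior genes of groups 9 to 13 together had 0 counts in the low-receptor libraries except Hoxb9, Hoxa10, Hoxa9 and Hoxd12. Hoxb9, a thoracic gene, had 18 counts in KO metastasis 3 (0.646 CPM), which had 10.1 receptor CPM, and 0 in metastases 4 and 7.

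By paralog group, the counts in the 9 low-receptor libraries were 2603 for group 2, 1518 for group 3 and 1520.0 for group 4. They were 4, 0, 1, 13, 19, 3, 0, 1 and 0 for groups 5 to 13. In the 4 high-receptor libraries every group had counts, from 8 for group 11 to 777 for group 2. Within groups 3 and 4 the other paralogs stayed near 0. Hoxa4 had 4 counts, Hoxc4 had 1 and Hoxd4 had 37, all in high-receptor libraries, and Hoxd3 had 2, both in control primary 3. Further members, Hoxa5, Hoxa6, Hoxa10, Hoxb6, Hoxb7, Hoxb8, Hoxb13, Hoxc5, Hoxc6, Hoxc9 to Hoxc13, Hoxd1 and Hoxd9 to Hoxd12, had between 1 and 28 counts each, with at most 0.685 CPM in any library.

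Among non-coding genes of the clusters, 16 of 26 listed were in the table and 2 were tested. Hoxb3os, an antisense transcript, was at 0 counts in every control. It had 32, 36, 23 and 5 counts in KO primary 3, 4, 6 and 7, and 439, 295, 116 and 0 in the metastases. It was called in metastases against controls (edgeR adjusted p = 0.0166) and not in KO primary (0.0851). Like Hoxb3 it was at 0 in metastasis 7. Of its 4201 exon bases, 2250 are shared with Hoxb3 and 953 with Hoxb2 on the other strand. No source used here gives the strand setting of the counting. How reads on the shared bases were counted is thus not known. Hoxaas2 lies 0.842 kb from Hoxa2 without overlapping it. Its counts were 20, 0, 0, 0 and 0 in control primary, 7, 63, 17 and 34 in KO primary, and 122, 91, 26 and 116 in the metastases. Metastasis 7, where Hoxa2 was high and the HoxB genes near 0, was high for Hoxaas2. It was not called (edgeR adjusted p = 0.484 in KO primary and 0.148 in metastases, both against controls). Hotairm1, a HoxA transcript, had 4, 5, 5 and 11 counts in the metastases. The microRNA gene Mir10a, next to Hoxb4, had 0 counts in every library.

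Of 32 genes flanking the clusters, 26 were tested. In KO primary against control primary, 1 was called: Snx11, a sorting nexin 399 kb beyond Hoxb1, at 228 ± 18.0 against 48.3 ± 18.4 CPM (log2 change 2.24, SE 0.23, edgeR adjusted p = 0.000249). In metastases against controls Snx11, Cbx1 and Hnrnpa1 were called higher, Snx11 at 177 ± 30.6 CPM (adjusted p = 0.000748). The list's median log2 change was 0.08 in KO primary and 0.10 in metastases against controls, beside -0.05 and -0.04 over all genes tested. Skap1, between Hoxb1 and Snx11, had 3.86 ± 4.59 CPM in control primary, 6.16 ± 2.46 in KO primary and 7.01 ± 2.15 in KO metastasis, with no call.

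Partners and regulators of Hox proteins were read next. Of the 11 TALE cofactor genes 0 were called in the 3 edgeR comparisons. Meis1, a HOX cofactor that granule cell precursors express, had 299.9 ± 73.1 CPM in control primary, 338 ± 55.9 in KO primary and 328 ± 69.0 in KO metastasis. Meis2, its paralog, was uneven: it had 8.10 CPM in control primary 3, a high-receptor library, and 0, 0.0380, 0 and 0 in control primary 4 to 7. It had 1.90, 1.80, 0.767 and 3.60 CPM in KO primary 3, 4, 6 and 7, and 55.9, 8.20, 4.21 and 1.90 in the metastases. Without control primary 3 the knockout libraries were thus all above the controls, but with it Meis2 was not called (edgeR adjusted p = 0.983 in KO primary and 0.332 in metastases, both against controls). Of 16 Trithorax and menin genes and 22 Polycomb genes 0 were called in each comparison, with median log2 changes of 0.06 and 0.12 in KO primary against control primary. Ezh2, the Polycomb methyltransferase, had 167 ± 35.3, 191 ± 14.6 and 198 ± 19.6 CPM in control primary, KO primary and KO metastasis.

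Among 24 ParaHox genes and activators upstream of Hox genes, 15 were tested. Rxra, a retinoid receptor, was called higher in KO primary, at 105 ± 12.5 against 46.3 ± 14.6 CPM (edgeR adjusted p = 0.0162). In metastases against controls 3 were called higher: Rxra (89.3 ± 25.5 CPM, adjusted p = 0.0494), the retinoic acid receptor gene Rarb (10.1 ± 2.49 against 4.90 ± 1.16 CPM, 0.0311) and Egr2. Egr2, also known as Krox20, directly activates Hoxa2 and Hoxb2 in alternate rhombomeres. It stood at 19.9, 12.8, 23.9, 16.8 and 14.5 CPM in control primary 3 to 7. In KO primary 3, 4, 6 and 7 it was 63.3, 24.3, 66.2 and 18.2 CPM, and in KO metastasis 62.8, 59.3, 79.2 and 49.7 CPM. All metastases were above all controls (edgeR adjusted p = 0.0104), while KO primary 7 lay within the controls (0.0621). Hoxa2 had 0 counts in KO primary 7, and in KO primary 4, with the other low Egr2 value, Hoxa2 was highest of its group. Whether Egr2 had a part in the Hox levels was not tested. Egr2 was also on a list of Schwann cell markers. Of the 6 tested there, it alone was called in metastases against controls (list median log2 change -0.13).

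Spinal cord cells carry Hox transcripts, so markers of other cell types were read beside the Hox genes. Markers of the labelled cell type were present in all libraries: 15 of 15 granule cell precursor genes were tested, and their summed level was 5078 to 6854 CPM in control primary, 6819 to 8229.6 in KO primary and 6791 to 8954 in KO metastasis. Atoh1, which granule cell precursors need, was called higher in both knockout groups against controls, and Barhl1 in the metastases. The 11 oligodendrocyte markers summed to 179 to 443 CPM in control primary, 138 to 240.0 in KO primary, and 242, 424, 2022 and 860 CPM in KO metastasis 3, 4, 6 and 7. This sum was highest in metastases 6 and 7, whereas Hoxb2, Hoxb3 and Hoxb4 were highest in metastases 3 and 4. Mbp was called higher in metastases against KO primary (245 ± 117 against 44.2 ± 8.03 CPM, edgeR adjusted p = 0.0483). The 11 microglia markers summed to 41.6, 13.3, 204 and 158 CPM in metastases 3, 4, 6 and 7, against 4.05 to 17.8 in KO primary and 9.85 to 75.8 in control primary.

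Of markers for neurons of the spinal cord, Mnx1, which defines motor neurons, had 0 counts in metastases 3, 4 and 7 and 0.105 CPM in 6, and the inhibitory neuron gene Slc32a1 had 0 in all metastases. The 9 motor and cholinergic neuron markers summed to 30.8 to 59.8 CPM in control primary, 49.5 to 81.2 in KO primary and 48.8 to 87.3 in metastases. Of the 8 tested, 3 were called higher and 1 lower in metastases against controls (median log2 change 0.95). In KO primary against controls 2 were called higher and 1 lower (median 0.39). The 15 spinal and hindbrain interneuron markers summed to 218 to 425, 293 to 418 and 286 to 349 CPM in the same order. Of 6 tested, Tlx3 was called higher in both knockout groups against controls. In metastases against KO primary 0 genes of either list were called. The 8 markers of dorsal root ganglion neurons summed to 3.64 to 14.7, 17.8 to 32.0 and 30.4 to 76.2 CPM in the same order, with 76.2 in metastasis 3 and 64.4 in metastasis 4. Nearly all of it was Pou4f1, with 73.5 and 62.6 CPM in these libraries, which was called higher in both knockout groups against controls. Prdm12, Scn10a and Trpv1 were at 0 in both, and the list's median log2 change in metastases against controls was -0.65 over 7 tested genes. The 12 fibroblast and meningeal markers summed to 66.8 to 161 CPM in metastases and 175 to 292 in KO primary. The part of any of these cell types in the Hox reads was not tested.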

How the data were processed

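Raw read counts per gene symbol for 13 libraries were used as deposited by the authors, in 1 table with no column left without a sample. Upstream use of HTSeq 0.6.1, STAR 2.4, the build mm10 and DESeq2 is named, per the submitters' processing notes, with no roles stated. The annotation release and the strand setting were not given in the labels or headers. Groups came from the labels' titles and genotypes.

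All 22265 genes that passed filterByExpr (minimum count 10, minimum total 15) entered a single edgeR fit (version 4.0.16, under R 4.3.3) with TMM scaling and the robust quasi-likelihood F test for 3 groups, on all 13 libraries. Benjamini-Hochberg adjustment covered all genes tested, and a gene was called below 0.05. The SE given with edgeR log2 changes was worked back as the size of the change over the square root of its F statistic. It is only a rough guide where a group has few or 0 counts. The fit was tested on simulated counts. Alternatives used DESeq2 1.42.0, limma 3.58.1 (voom), other filters and scaling, a replicate block and fewer libraries. Leaving out the 3 controls with Xist was added after the data had been seen. Ratios of pooled counts carry 95% counting intervals and use a floor of 3 counts over a group at 0. These intervals leave out the spread between libraries.

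The Hox members, the gene lists and the rules were chosen with earlier results of these data known. Values by library are given for members with a mean of at least 0.5 CPM in a group or a call, and the rest by counts. Of other lists at most 3 called genes, defining markers and a few genes named for their place or role are given. Symbols were matched to GENCODE M21 on GRCm38, where all 39 members were found. Comparisons of proteins were not made here, and results for some genes are not reported here.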

Additional observations from a re-analysis of the deposited data

Results flagged for a closer look

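In 17 sets of 4 or 5 libraries, the levels of Hox genes described by library were searched for a highest or lowest library that lies far from the rest of its group, measured against the group's whole range. About 1 set in 20 would show this by chance where values vary continuously, but that rate does not apply where the other libraries are all at 0, since 1 read is then enough. Among the controls this was seen for control primary 3, with 0.114 CPM of Hoxa2, 2.55 CPM of Hoxb1, 0.190 CPM of Hoxb2 and 0.190 CPM of Hoxd8, while the other 4 controls were at 0 for each. It was also seen for control primary 4, with 0.0296 CPM of Hoxb4, which is 1 read. Among KO primary libraries, replicate 7 had 1.11 CPM of Hoxb1 and 0.325 CPM of Hoxd8, against at most 0.106 and 0 CPM in the others. Control primary 3 and KO primary 7 are the libraries of their groups with the most receptor reads, 1752 and 723 CPM. Whether these Hox reads and the receptor reads have one source was not tested.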

How the results depend on the processing

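The sex read from Xist, the receptor reads and the few Hox reads of the controls limit these comparisons. The ratios against controls rest on 3, 5, 0 and 1 control counts of Hoxa2, Hoxb2, Hoxb3 and Hoxb4, so single reads change them. Of the fitted log2 changes of named Hox genes under alternatives, 195 kept their direction and side of the threshold, 10 passed it, 20 lost it and 14 changed sign. The 4 cluster sums moved by less than 1 SD with unscaled totals in the 3 groups. The causes of the changes below were not tested, except that fewer libraries or genes were tested where the setting says so.

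In KO primary against control primary, 659 genes and 2 Hox genes were called. The numbers were 1510 and 4 with DESeq2, 3267 and 0 with voom, 1431 and 4 without the high-receptor libraries, and 155 and 0 without the 3 controls with Xist. Leaving out 1 library gave 297 to 989 genes and 0 to 3 Hox genes. In metastasis against KO primary, 1 gene was called. With DESeq2 it was 33, with voom 2, with only both groups fitted 0, without the high-receptor libraries 5 (2 of them Hox genes) and without the controls with Xist 0. Leaving out 1 library gave 0 to 1 genes and 0 Hox genes. In metastasis against control primary, 683 genes and 4 Hox genes were called, and 3 Hox genes with no low-count filter. The numbers were 1532 genes with DESeq2, 3822 with voom, 1279 without the high-receptor libraries, and 106 and 0 Hox genes without the controls with Xist. With only both groups fitted, Hoxa2 alone passed the filter and 1 Hox gene was called. Leaving out 1 library gave 380 to 1125 genes and 4 Hox genes.

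The Hoxb1 change turned from -0.70 to 1.54 with voom in KO primary and ranged from -3.32 to 6.33 with 1 library left out. In metastasis against control primary it was 0.05, and -0.01 with DESeq2 size factors, -0.02 with DESeq2, 5.29 with voom, 3.15 with the replicate block, -1.06 without the controls with Xist and -0.43 to 7.17 with 1 library left out. Hoxb2 and Hoxb3 turned to -1.29 and -1.42 with voom in metastasis against KO primary, where Hoxb4 was at 0.02.

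With the replicate number as a block, 1 Hox gene (Hoxb4) was called in KO primary against control primary and Hoxa2 was not (adjusted p = 0.0733), 0 genes in metastasis against KO primary, and Hoxb1 stood at 0.88 in the former. The numbers were not taken to pair the libraries, since the labels do not say that they do. The correlation of deviations between same-numbered KO primary and metastasis libraries was 0.115, 0.341, 0.0637 and 0.532 for replicates 3, 4, 6 and 7. Of the 4 metastases 1, replicate 7, correlated best with its own number. With 4 libraries in each group these values cannot decide whether equal numbers mark one mouse.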
